A study of Mus musculus with 10 samples.

Results

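The data described here are the RNA of microglia sorted from the brains of wild-type (WT) mice. These libraries were chosen by their label, genotype WT, and make up 5 of the 10 libraries of the series. They are named WT 1 to WT 5 after the biological replicate number in their labels. The mice were female, were not treated and were either C57BL/6J or Rosa26Stop-YFP animals. The study's methods give more than 1 age, as lower limits, and the paper calls the mice relatively young. Neither the strain nor the age is assigned to a library, so the libraries may mix ages. Whether a library is 1 mouse is not stated, so the spread between libraries given below may hold both animal and technical differences. Brains without olfactory bulb and cerebellum were digested with collagenase, and cells with CD45.2 and CD11b on the surface were sorted in a pair of rounds after exclusion of cells positive for a viability dye, Ly6C, Ly6G, MHCII or CD38. The integrity of the RNA was not measured, and libraries were made with TruSeq RNA v2, a kit whose reads do not tell the strand. The files list 53697 genes, and estimated counts summed to 23381908 to 25870859 per library.

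Microglia are the macrophages of the brain parenchyma. They arise in the yolk sac, renew themselves locally and depend on signals through the receptor Csf1r for survival. Their fine processes sense nucleotides, chemokines and complement, and they take up synapses, debris and dying cells, which are degraded in lysosomes. The genes P2ry12, Tmem119, Cx3cr1 and Csf1r are widely used to recognise them.

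These 4 markers were looked at before other genes were described, as a check that the sorted cells were microglia. They do not test the genotype label. P2ry12, which encodes an ADP receptor on the processes, took 1.13%, 1.01%, 0.924%, 1.21% and 1.23% of the counts in WT 1 to WT 5. Tmem119, a membrane protein that sets microglia apart from other macrophages, took 0.935%, 0.846%, 0.886%, 0.881% and 1.08%. Cx3cr1, the receptor of fractalkine, took 1.07%, 1.16%, 1.07%, 1.14% and 1.05%. Each of these 3 receptors and membrane proteins thus held close to 1 in 100 counts in every library. Csf1r, the receptor of CSF1 and IL-34, took 1.27%, 1.91%, 1.75%, 1.51% and 1.11%, and was lowest in WT 1 and WT 5. Together the 4 markers held 4.63 ± 0.206% of the counts (SD, n = 5 libraries, here and below), with a range of 4.41% to 4.92%. All 4 ranked among the first 11 genes of each library.

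WT 1 and WT 5 stood apart from WT 2, WT 3 and WT 4, which touches the results on spread. Pearson's r of log2(CPM + 1), over 11667 genes with a mean of at least 1 CPM, counts per 1000000 of a library, was 0.984 between WT 1 and WT 5 and 0.972 to 0.983 among the other 3 libraries. Between these sets it was 0.933 to 0.967, the lowest value being that of WT 3 and WT 5. The first principal component of these 5 libraries held 73.6% of the variance, with WT 1 at -28.4 and WT 5 at -34.8 against 10.6 to 33.5 in the others. Mitochondrial genes held 1.75% and 1.54% of the counts in WT 1 and WT 5 and 0.986% to 1.16% in the others, and their part in this split was not tested. Without WT 1 and WT 5 the 4 markers held 4.76% of the counts.

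Transcripts of few genes filled the libraries. The gene with the highest share, Ctsd, alone held 3.06 ± 0.230% of the counts. The 10 first genes held 15.8 ± 0.544%, the 30 first 26.5 ± 0.602% and the 100 first 39.0 ± 0.769%. A set of 248 genes reached 50% of the counts, 1364 genes reached 75% and 3627 genes reached 90%. In single libraries 50% was reached with 229 to 268 genes, WT 3 needing the most. At the other end, 26268 genes (48.9%) had no count in any library, and 10562 genes had at least 1 CPM in all 5, which is what "detected" means below. Genes between 1 and 10 CPM on average numbered 4382 and together held 1.80% of the counts.

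The genes at the top were lysosomal, complement and membrane genes of microglia. Ctsd, the lysosomal aspartic protease cathepsin D, took 3.09%, 3.34%, 3.22%, 2.89% and 2.78% of the counts in WT 1 to WT 5. Cst3, the secreted protease inhibitor cystatin C, took 2.49%, 3.06%, 3.06%, 3.18% and 2.70%. Ctsd was above Cst3 in WT 1, WT 2, WT 3 and WT 5, and Cst3 was above Ctsd in WT 4. Csf1r, P2ry12 and Cx3cr1 came after them. Ctss, the cysteine protease cathepsin S, took 1.02 ± 0.189%, Serinc3, a membrane protein of the serine incorporator family, 1.01 ± 0.10%, and C1qb, a chain of the complement starter C1q, 0.869 ± 0.0953%. The only noncoding gene among the 30 first was CT010467.1, a ribosomal RNA gene model, with 0.408% to 1.19% of the counts.

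**Figure D1:**
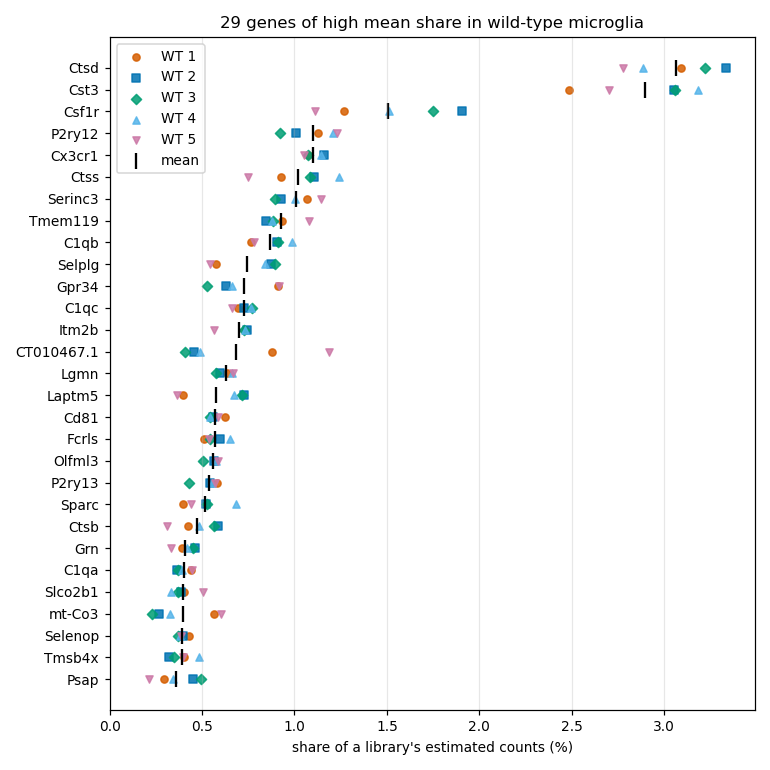
Share of a library's estimated counts (%) for 29 of the 30 genes of highest mean share in wild-type microglia, with 1 symbol per library and a bar at the mean. Ctsd and Cst3 lie above 2% in every library, and CT010467.1 and Csf1r show the widest ranges.

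The membership of this group was steadier than its order. Of the 30 first genes by mean share, 24 were in the first 30 of every library, and 36 genes entered the first 30 of at least 1 library. Of the first 100, 80 were shared by all libraries. Among the 29 pairs of neighbours in the order of the 30 first genes, only 3 kept their order in all 5 libraries, among them Serinc3 above Tmem119 and C1qb above Selplg. Other neighbours by share of counts did not differ beyond their spread in this sense, and 10 pairs kept their order within WT 2, WT 3 and WT 4.

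The promoters of 4 of these genes are shown because they stand for the main groups of the top of the list, a lysosomal protease, a secreted protease inhibitor and a pair of surface receptors. Each sequence is the 250 bases before the RefSeq start of the gene in GRCm38.p6, read on the coding strand, which is the minus strand for all 4. The windows are chr7:142387828-142388077 for Ctsd, chr2:148875513-148875762 for Cst3, chr3:59262986-59263235 for P2ry12 and chr9:120068297-120068546 for Cx3cr1. Capitals mark the palindromic E-box CACGTG and the GC box GGGCGG, searched on both strands, and no other letters are marked.
Ctsd: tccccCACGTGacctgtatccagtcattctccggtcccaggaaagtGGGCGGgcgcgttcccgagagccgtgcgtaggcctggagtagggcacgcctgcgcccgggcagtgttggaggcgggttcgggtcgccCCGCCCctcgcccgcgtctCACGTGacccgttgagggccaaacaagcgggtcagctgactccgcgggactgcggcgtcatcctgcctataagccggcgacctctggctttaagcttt
Cst3: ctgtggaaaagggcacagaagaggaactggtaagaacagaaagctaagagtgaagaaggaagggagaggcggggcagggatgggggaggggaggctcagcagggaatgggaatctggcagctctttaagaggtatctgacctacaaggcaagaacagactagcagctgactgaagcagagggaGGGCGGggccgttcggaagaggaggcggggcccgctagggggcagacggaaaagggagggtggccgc
P2ry12: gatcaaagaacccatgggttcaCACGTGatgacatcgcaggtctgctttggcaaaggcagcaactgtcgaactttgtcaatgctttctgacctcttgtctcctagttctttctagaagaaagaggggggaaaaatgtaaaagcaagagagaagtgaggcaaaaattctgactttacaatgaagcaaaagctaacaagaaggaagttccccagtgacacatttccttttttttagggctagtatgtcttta
Cx3cr1: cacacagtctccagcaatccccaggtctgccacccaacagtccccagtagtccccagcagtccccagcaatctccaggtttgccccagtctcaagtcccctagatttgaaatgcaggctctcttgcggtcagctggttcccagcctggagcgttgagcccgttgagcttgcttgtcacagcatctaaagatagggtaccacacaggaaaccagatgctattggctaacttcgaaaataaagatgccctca
Ctsd held 2 E-boxes, at 245 to 240 and 98 to 93 bases before the start, and 2 GC boxes, at 204 to 199 and 117 to 112. Cst3 held 1 GC box at 67 to 62, P2ry12 held 1 E-box at 228 to 223, and the window of Cx3cr1 held neither. Over 32851 RefSeq promoter windows of this length, 6.02% held the E-box and 32.7% the GC box. Over the windows of detected protein-coding genes the shares were 8.63% and 58.2%, for 7860 of 9755 genes with an entry. For the 100 protein-coding genes of highest share they were 9.38% and 47.9%, with an entry for 76. For the lysosomal lists below they were 20.3% and 54.4%, for 67 of 90 genes with an entry. A further pair of motifs was searched in the same windows and is not given here. These are matches of letters only, counted with no test.

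Share of counts grows with transcript length, so levels of different genes were compared as TPM, the level per length that sums to the same total in each library, recomputed from counts over effective length among genes of at least 100 bases. On this scale Cst3 stood first with 88017 ± 8943 TPM, from 77594 to 97099, and 3.52 to 4.70 times the level of Ctsd within a library. Ctsd had 21536 ± 2262 TPM. The 3 chains of C1q were all among the 9 first protein-coding genes, C1qb with 18657 ± 2131, C1qc with 12925 ± 1034 and C1qa with 10787 ± 900 TPM. The level of C1qb was above that of C1qc in 5 of 5 libraries, by 1.33 to 1.55 times, and C1qc was above C1qa in 4 of 5.

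Short transcripts moved up on this scale. Tmsb4x, the actin-binding peptide thymosin beta 4, ranked at 29 by share of counts and at 6 by TPM, with 12732 ± 1643 TPM. Tyrobp, the signalling adaptor DAP12, ranked at 55 by share and at 14 by TPM, with 6725 ± 358 TPM. The markers parted in the same way, P2ry12 holding 11952 ± 1712 TPM, Tmem119 8451 ± 657, Csf1r 5556 ± 1338 and Cx3cr1 5043 ± 240. In TPM, P2ry12 was above Tmem119 and Tmem119 above Csf1r in each library, while Csf1r was above Cx3cr1 in 3 of 5. Of 14 neighbouring pairs among the 15 first protein-coding genes by TPM, 3 kept their order in all libraries, among them Cst3 above Ctsd and C1qa above Tmem119.

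**Figure D2:**
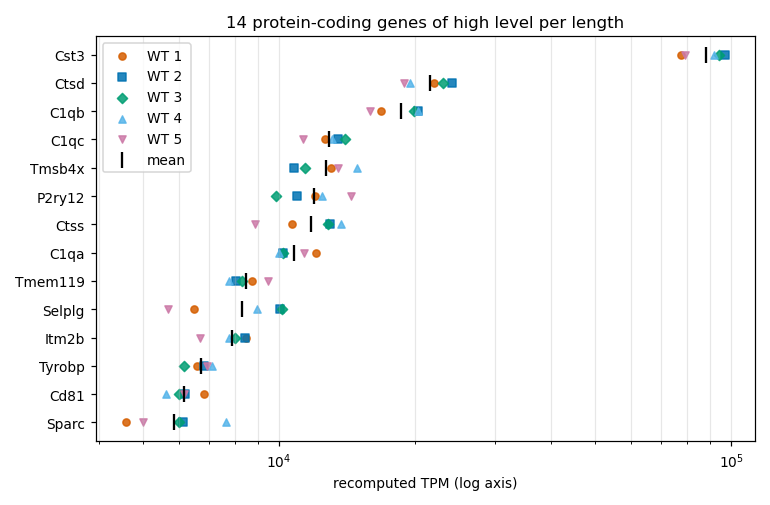
Recomputed TPM on a log axis for 14 of the 15 protein-coding genes of highest mean level per length, with 1 symbol per library and a bar at the mean. Cst3 stands apart from all others at 77594 to 97099 TPM, and the ranges of most neighbouring genes overlap.

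A list of 21 genes of microglial identity, all detected, held 14.3%, 15%, 14.3%, 15.4% and 14.7% of the counts in WT 1 to WT 5, or 14.7 ± 0.462%. By TPM it held 17.4%. Cst3 gave 19.7% of the list's counts and Csf1r was among the next. Further members were Selplg, the ligand of P-selectin, with 0.744 ± 0.171% of counts, Gpr34, a lysophosphatidylserine receptor, with 0.728 ± 0.176%, Fcrls, an Fc receptor-like protein, with 0.568 ± 0.0562%, and Olfml3, a secreted matrix protein, with 0.560 ± 0.0311%. Selplg and Gpr34 differed in opposite ways between libraries. Selplg took 0.574% and 0.542% in WT 1 and WT 5 against 0.841% to 0.893% in the others, and Gpr34 took 0.911% and 0.915% against 0.524% to 0.661%. Sparc, a matrix-binding glycoprotein, ran from 0.399% in WT 1 to 0.681% in WT 4. Tgfbr1, a receptor chain for TGF-beta, took 0.231% to 0.470% and was again highest in WT 1 and WT 5.

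The 14 macrophage genes that microglia share with other tissues were all detected and held 3.74 ± 0.313% of the counts. Ctss led this list, followed by Lgmn, the lysosomal endopeptidase legumain, with 0.628 ± 0.0403%, and Laptm5, a lysosomal membrane protein of blood cells, with 0.575 ± 0.179%. Laptm5 took 0.396% and 0.364% in WT 1 and WT 5 and 0.670% to 0.729% in the others. Ptprc (CD45) and Itgam (CD11b), the genes of the surface proteins used for the sort, were read at 302 ± 27.9 and 1213 ± 196 CPM on TMM-scaled library sizes.

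**Figure D3:**
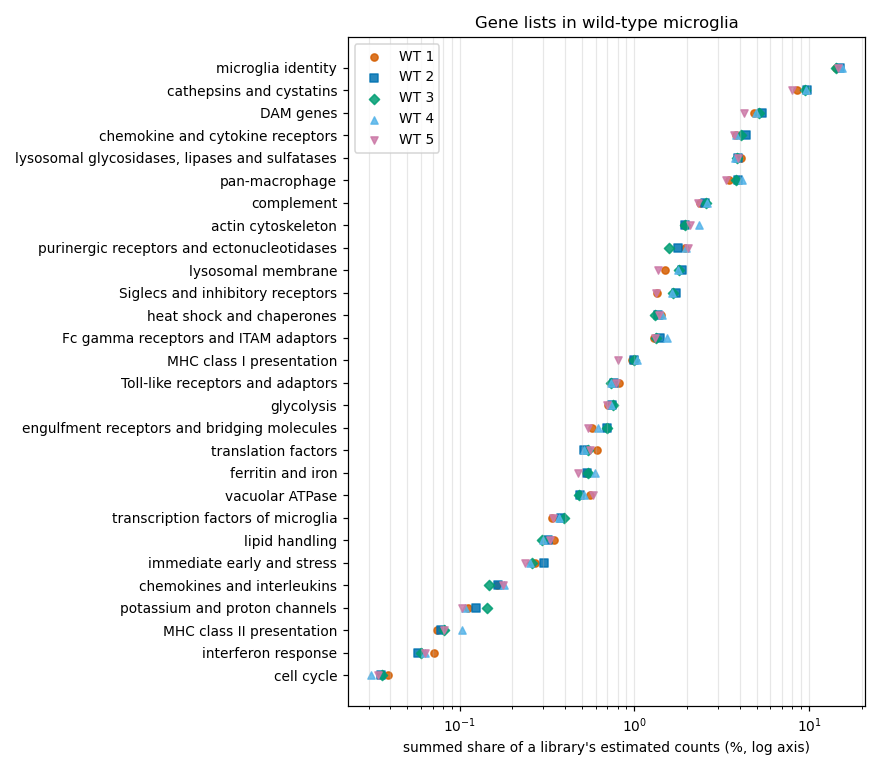
Summed share of a library's estimated counts (%, log axis) for each core and function list, with 1 symbol per library. The lists run from the microglial identity genes at 14.3% to 15.4% down to the cell cycle genes at 0.0311% to 0.0387%, and for most lists the 5 libraries lie close together.

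Lysosomal genes formed the largest functional group. Of 17 cathepsins and cystatins 14 were detected, and the list held 8.51%, 9.77%, 9.52%, 9.55% and 8.02% of the counts in WT 1 to WT 5, lowest in WT 1 and WT 5. Cathepsin genes alone held 5.54 ± 0.571%, of which Ctsd made up 55.3%. After Ctsd and Ctss came the cysteine proteases Ctsb with 0.473 ± 0.112% and Ctsz with 0.234 ± 0.0571% of counts. In TPM, Ctsd was 1.43 to 2.13 times as high as Ctss within a library, and Ctss 3.03 to 4.21 times as high as Ctsb. Ctsk, the cathepsin of osteoclasts, reached at most 0.0839 CPM.

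The 34 glycosidases, lipases and sulfatases of the lysosome were all detected and held 3.91 ± 0.123% of the counts. Psap, the precursor of the saposins that help lipid breakdown, took 0.359 ± 0.114% and ranged from 0.215% in WT 5 to 0.494% in WT 3. Of 20 lysosomal membrane and granule genes 19 were detected, with 1.66 ± 0.215% of counts, led by Laptm5, Grn (progranulin, 0.410 ± 0.0528%) and Lamp2. Lamp2 was read at 1666 ± 301 CPM and Lamp1, its relative, at 64.2 ± 25.2 CPM. These CPM are not levels per length, and the part of transcript assignment in them was not tested. The proton pump that acidifies the lysosome, with 17 of 19 subunit genes detected, held 0.523 ± 0.0423%. Its leading genes were Atp6ap1, Atp6v0b and Atp6v0c, and Atp6v0d2 was read in WT 4 alone, at 0.0839 CPM.

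Complement genes held 2.47 ± 0.123% of the counts, of which the C1q chains made up 2.00 ± 0.108%. Of 20 genes in this list 13 were detected. C3ar1, the receptor of C3a, was read at 621 ± 116 CPM. C3 itself was read at 0 to 0.671 CPM, while C1s1 and Serping1, a protease and an inhibitor of the classical pathway, had no count in any library. At the depth of these libraries, 3 counts correspond to 0.116 to 0.128 CPM, which is the limit that a count of 0 allows, for counting error only.

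Receptors that sense the surroundings were also among the abundant groups. The 16 purinergic receptors and ectonucleotidases held 1.86 ± 0.179%, with 59.3% of it in P2ry12. P2ry13, another ADP receptor, took 0.535 ± 0.0597% of counts, and Entpd1 (CD39), which degrades ATP and ADP outside the cell, was read at 1210 ± 128 CPM. P2ry6, a UDP receptor, was read at 336 ± 28.4 CPM. In TPM, P2ry12 was 3.97 to 4.87 times as high as P2ry13 within a library, and P2ry13 6.10 to 8.60 times as high as P2ry6. Nt5e (CD73), which completes the path to adenosine, reached at most 0.126 CPM, and Adora2a, an adenosine receptor, had no count.

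Chemokine and cytokine receptors held 3.96 ± 0.261% of the counts, with 28 of 30 genes detected. Besides Csf1r, Cx3cr1 and Tgfbr1, they included Ifngr1, a chain of the interferon gamma receptor, with 0.267 ± 0.0334% of counts, Tgfbr2 with 886 ± 187 CPM and Il10ra with 650 ± 81.2 CPM. Cx3cr1 alone made up 91.2% of the counts of the 18 chemokine receptor genes. The ligands were scarce by comparison. In all, 30 chemokine and interleukin genes held 0.166 ± 0.0125% of the counts, led by Il16 (475 ± 53.8 CPM), Ccl6 (335 ± 63.6 CPM), Ccl9 (305 ± 96.0 CPM) and Ccl4 (140 ± 36.6 CPM). The inflammatory cytokines Il1b, Tnf and Il6 were read at 4.28 ± 1.13, 2.56 ± 1.37 and 5.40 ± 1.46 CPM.

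Of the Toll-like receptors and their adaptors, 19 of 21 were detected with 0.766 ± 0.0369% of the counts. Unc93b1, which carries endosomal receptors to their compartment, made up 42.6% of these counts and was steady between libraries, at 3247, 3350, 3275, 3141 and 3317 CPM in WT 1 to WT 5. The receptor genes themselves held 0.183 ± 0.0318%. In TPM, Tlr2 stood at 183 ± 42.5, Tlr13, a sensor of bacterial ribosomal RNA, at 148 ± 22 and Tlr4 at 88.7 ± 27.9, in this order in each library. Tlr3 was read at 124 ± 13.8 CPM, Tlr9 at 3.70 ± 0.701 CPM and Tlr8 not at all.

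Fc gamma receptors and adaptors with an activation motif were all detected, 14 of 14, with 1.37 ± 0.0976% of the counts. Fcrls gave 41.3% of them. In TPM, Tyrobp was above Fcer1g, the common gamma chain, in each library, at 6725 ± 358 against 4118 ± 403, and Fcer1g was above Fcgr3, at 2366 ± 138. Trem2, the lipid-sensing receptor that signals through Tyrobp, had 3239 ± 306 TPM. The list of Siglecs and inhibitory receptors held 1.54 ± 0.19%, with 17 of 20 detected, and 0.964 ± 0.0217% without Laptm5, its leading gene, which is also on the lysosomal membrane list. Its members included Vsir (VISTA) with 0.339 ± 0.0214% of counts, Sirpa, the receptor of the CD47 signal, with 1783 ± 206 CPM, and Cd33 with 619 ± 70.3 CPM.

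Engulfment receptors and their bridging molecules held 0.624 ± 0.0702% of the counts, with 18 of 22 detected. Trem2 led them, and Pros1, a bridge to phosphatidylserine, and Mertk, the receptor kinase that binds it, followed with 1306 ± 67.8 and 837 ± 134 CPM. Axl, a relative of Mertk, was read at 15.9 ± 1.98 CPM and Timd4 had no count. Genes of lipid handling held 0.317 ± 0.0210%, with 20 of 25 detected. Their leading members were Abca9, a transporter (719 ± 105 CPM), Npc2, which moves cholesterol out of lysosomes (502 ± 85.5 CPM), Lipa, the lysosomal acid lipase (348 ± 37.7 CPM), and Abcg1, a cholesterol exporter (287 ± 21.6 CPM). Apoe, the lipid carrier that is prominent in activated microglia, was read at 7.15, 55.9, 62.9, 190 and 18.2 CPM in WT 1 to WT 5, a 26.6-fold range. It was lowest in WT 1 and WT 5 and is among the genes of at least 5-fold range described below. The part of transcript assignment in its values was not tested.

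Genes of the disease-associated microglial (DAM) state were present at unequal levels. The list of 28 genes held 4.92 ± 0.438% of the counts with 23 genes detected, but Ctsd made up 62.2% of that, and Ctsb and Ctsz came next, which are also on the cathepsin list. Members with low baseline values included Cst7 with 10.3 ± 2.94, Lpl with 10.9 ± 7.66, Itgax with 5.92 ± 1.17 and Spp1 with 2.05 ± 1.12 CPM. Gpnmb was read at 0.0402 to 0.298 CPM. Clec7a, a receptor for fungal glucans, was read at 14.9, 19.8, 14, 2.35 and 1.69 CPM in WT 1 to WT 5, lower in WT 4 and WT 5 than in the other libraries.

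Genes of antigen presentation through MHC class I held a larger share of the counts than those of class II. All 20 class I genes were detected and held 0.958 ± 0.0916%, led by Pdia3, a chaperone, and B2m, the shared light chain with 1818 ± 456 CPM. H2-D1 was read at 920 ± 301 and H2-K1 at 506 ± 52.3 CPM. The class II list held 0.0835 ± 0.0114% with 7 of 11 genes detected, and was led by H2-DMa, a peptide exchange chain, at 392 ± 71.8 CPM. H2-Ab1 was read at 17.5 ± 4.01 CPM, Cd74, the invariant chain, at 16.4 ± 11 CPM, and H2-Aa and H2-Eb1 at 0.308 to 1.12 and 0.231 to 0.644 CPM. Cells with MHCII on the surface had been removed by the gate.

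Transcription factors contributed little to the counts. The 26 factors listed held 0.364 ± 0.0237%, with 23 detected. Irf8 led with 811 ± 63.1 CPM, at 921 CPM in WT 5 and 769 to 806 CPM elsewhere, followed by Mef2c with 770 ± 55.7 and Fli1 with 259 ± 33.6 CPM. Sall1, a repressor that marks microglia among macrophages, was read at 183, 281, 266, 243 and 185 CPM in WT 1 to WT 5, lowest in WT 1 and WT 5. Cebpa was read at 6.78 ± 1.67 CPM. Spi1, the gene of PU.1, was read at 47.0, 387, 405, 415 and 45.8 CPM. The values of Spi1 in WT 1 and WT 5 did not come near those of the other libraries. The abundance-weighted transcript length that the files give for Spi1 moved with them, at 765, 1647, 1733, 1786 and 794 bases, and the annotated transcripts of the gene are 402, 544, 613 and 2034 bases long. In TPM, which divides by that length, Spi1 ran from 139 to 524. The part of transcript assignment in these values was not tested.

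Genes of activation, division and dissociation were read as well. Immediate early and stress genes held 0.264 ± 0.0256%, with 29 of 31 detected, and were led by Btg2 (553 ± 108 CPM) and Klf6 (280 ± 73.5 CPM). Jun was read at 50.3, 471, 410, 376 and 47.3 CPM in WT 1 to WT 5, the same split as Spi1, while Fos was read at 87.1, 185, 110, 83.9 and 34 CPM and Junb at 233 ± 27.3 CPM. Chaperones held 1.38 ± 0.0538% with 28 of 28 detected. The interferon response list held 0.0630 ± 0.00506% with 21 of 28 detected, Irf9 leading at 115 ± 12 CPM. The cell cycle list held 0.0350 ± 0.00272% with 12 of 25 detected. Its leading genes Mcm3 (88.8 ± 10.6 CPM) and Pcna (61.3 ± 8.75 CPM) act in DNA replication and repair, while Top2a (0.657 ± 0.139 CPM) and Mki67 (at most 0.0419 CPM), genes of dividing cells, lay below 1 CPM.

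Among genes of the cell's basic machinery, actin regulators held 2.04 ± 0.176% of the counts, with 38 of 38 detected and Tmsb4x, Actb and Capza2 in the lead. Ribosomal proteins, 83 of 86 detected, held 1.52%, 1.05%, 1.12%, 1.27% and 1.52% of the counts in WT 1 to WT 5. By TPM their share was 4.83%. The 13 messenger RNAs of the mitochondrial genome held 1.15 ± 0.278%, led by mt-Co3 at 0.565%, 0.269%, 0.226%, 0.324% and 0.60%. Both families were highest in WT 1 and WT 5. Nuclear genes of oxidative phosphorylation held 0.784 ± 0.0810% and glycolysis 0.727 ± 0.0239%. The latter was led by Slc2a5, a fructose transporter that marks microglia, with 0.236 ± 0.0206% of counts. Ferritins held 0.327 ± 0.0673%, Ftl1 standing above Fth1 in TPM in each library, at 5074 ± 1008 against 3922 ± 769. Among the tetraspanins, Cd81 took 0.571 ± 0.0349% of counts, and Cd9 was read at 1932 ± 77.1 CPM.

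Protein-coding genes held 97.1%, 98.0%, 98.0%, 98.0% and 96.9% of the counts in WT 1 to WT 5 and made up 92.4% of the detected genes. Ribosomal RNA models held 0.683 ± 0.337%, nearly all of it in CT010467.1, which overlaps other gene models. Long intergenic noncoding RNAs held 0.409 ± 0.0385%, with 35.4% of it in Malat1, a nuclear RNA read at 1444 ± 244 CPM. Pseudogenes together held 0.401 ± 0.0546%, and the unprocessed ones were led by Gm10925, Gm29216 and Gm28437, models that share sequence with mitochondrial genes, so that their reads could have been split between copies. Gm37376 (563 ± 78.1 CPM) overlaps Malat1 and cannot be told apart from it without strand. Rn7s1, a model of the signal recognition particle RNA, was read at 575, 232, 189, 351 and 908 CPM, highest in WT 1 and WT 5. Gm23935, annotated as a microRNA, was read at 586 CPM in WT 3 and 139 to 232 CPM elsewhere. MicroRNA models together held 0.0439 ± 0.0178%. Xist, the RNA of the inactive X chromosome, was read at 102 to 166 CPM, and the Y-linked genes Ddx3y, Uty, Eif2s3y and Kdm5d stayed below 1 CPM, beside the label female.

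Markers of other cells held a small part of the counts, 0.158 ± 0.0148%. The 133 genes in 13 lists of other cell types summed to 1366 to 1751 CPM per library, and 3 genes, Ighm, Slc1a3 and Stab1, led them. Of the 133 genes, 22 were detected and 31 had no count in any library. Over all 53697 genes, 10562 were detected and 26268 (48.9%) had no count. Among the 21845 protein-coding genes, 9759 were detected and 5310 had no count. The small part of these markers is read from their summed counts, not from the numbers detected. Neutrophil genes summed to 0.0428 to 0.620 CPM, with S100a8, S100a9 and Ly6g at 0, and oligodendrocyte precursor genes to 0.0855 to 0.487 CPM. Monocyte genes summed to 16.9 to 21.3 CPM, with Ccr2 at 3.77 ± 1.14 and Ly6c2 at 0 to 0.0432 CPM. The list of the gate's removed markers summed to 16.0 to 24.4 CPM, of which 92.8% was H2-Ab1. In bulk RNA, fewer cells of a type and less RNA per cell cannot be told apart.

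Of the lists of other cells, those of B cells, border-associated macrophages, astrocytes and oligodendrocytes stood higher. The B cell list summed to 442 to 728 CPM, of which 83.6% was Ighm, the constant region of IgM. Of its 10 genes 4 were detected, and Ighm, Cd79b and Cd22 led the list. Cd79b, a chain of the B cell receptor, was read at 67.3 ± 20.5 CPM. No count was found for 3 of the 10 genes, Pax5 and Igkc among them, and Cd79a reached 0.447 CPM at most. The list of border-associated macrophages summed to 192 to 320 CPM, 93.4% of it Stab1, a scavenger receptor. Of its 10 genes 3 were detected and 3 had no count, Cd163 and Lyve1 among the latter. Mrc1 (CD206) was read at 8.37 ± 4.88 CPM. Astrocyte genes summed to 240.0 to 428 CPM, 98.6% of it Slc1a3, a glutamate transporter. Of these 10 genes 1 was detected, with Gfap and Aqp4 below 1 CPM. Oligodendrocyte genes summed to 211 to 234 CPM, 61.5% of it Cnp, an enzyme of myelin-forming cells. The myelin genes Mbp and Mag were also detected, at a mean of 43.5 and 39.4 CPM, with 3 of the 10 genes of this list detected in all. The part of RNA from such cells in the libraries was not tested. Red blood cell genes summed to 0.0428 to 13.5 CPM and were highest in WT 5.

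**Figure D4:**
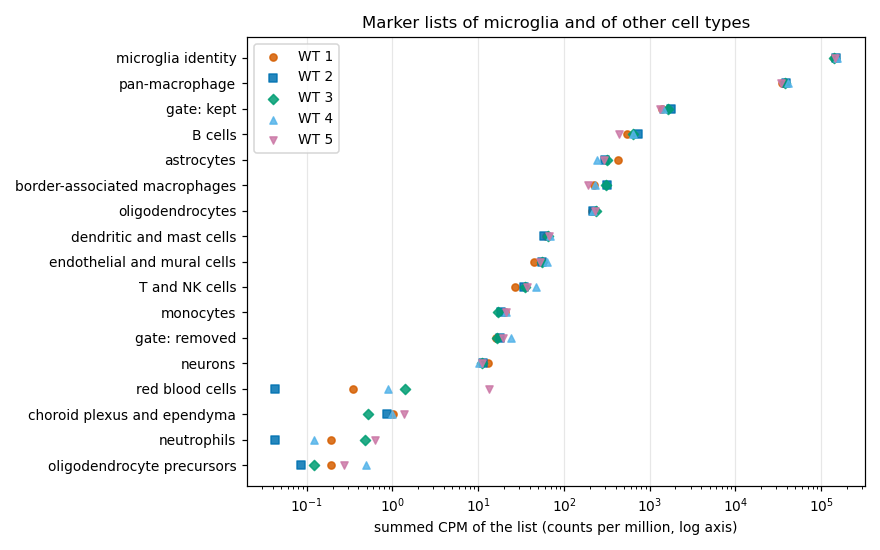
Summed CPM (log axis) of marker lists, with 1 symbol per library. The microglial and macrophage lists stand far above all lists of other cell types, and the red blood cell list shows the widest range between libraries.

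For most genes the libraries lay close together. Over 7287 genes of at least 10 CPM on average, the median coefficient of variation (CV, SD over mean of TMM-scaled CPM) was 15.5%. The median was lower for abundant genes, 27.1% at 1 to 10 CPM, 16.6% at 10 to 50 CPM and 13.7% at 1000 CPM or more. Counting error alone would give medians of 10.9%, 4.20% and 0.472% in these bands, so the spread of the abundant genes was far above counting error. The biological coefficient of variation, the root of edgeR's common dispersion over 12207 genes, was 30.3%, and 22.8% without WT 1 and WT 5.

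The steadiest of the 2984 genes with at least 50 CPM on average were Chmp3, a subunit of the membrane-cutting ESCRT machinery, with a CV of 0.301%, Papss1, which makes the sulfate donor of the cell, with 0.899%, Zfr, an RNA-binding protein, with 1.5%, Ube2d3, a ubiquitin-conjugating enzyme, with 1.83%, and Tmem109 with 1.97%. Chmp3 was read at 131 to 132 CPM in all libraries. Such values are the lower end of 2984 CVs from 5 libraries each. At 100 to 1000 CPM, counting error alone gives a median CV of 1.49%. The CV of Chmp3 is smaller than that, so it does not measure how steady the gene is. Among the top genes by share, Cd81 with a CV of 3.89%, Selenop, a selenium carrier, with 4.12%, Olfml3 with 6.13% and Cx3cr1 with 6.29% varied little, while Csf1r had 23%, Selplg 24.7%, Psap 32.5% and Laptm5 32.7%.

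A group of 87 genes, 2.92% of those with at least 50 CPM, differed at least 5-fold between their highest and lowest library. Of these, 65 were highest in WT 3, 41 were lowest in WT 1 and 43 were lowest in WT 5. Among all 2984 genes the numbers were 387 highest in WT 3, 509 lowest in WT 1 and 607 lowest in WT 5, and WT 3 was lowest in 752. In 80 of them both WT 1 and WT 5 lay below the other 3 libraries, as in 713 (23.9%) of the 2984 genes at this level. Together they held 0.348%, 1.63%, 2.36%, 1.41% and 0.420% of the counts in WT 1 to WT 5. Without WT 3 the number was 49, and without WT 1 and WT 5 it was 12, each over fewer libraries. The weighted length of the transcript differed at least 1.2-fold between libraries in 26.4% of the 87 genes and in 8.91% of all genes at this level, and their median GC content was 51.7% against 50.3%. The part of length, GC content or RNA quality in the split was not tested.

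Gnai2, a G protein subunit that couples chemokine and nucleotide receptors, was read at 23.1, 94.3, 619, 121 and 29.2 CPM in WT 1 to WT 5. It shares its position with the model Gm19721, as do H13 with Mcts2, Gas6 with Tmem255b and Jun with Junos, and the reads of such overlapping pairs could have been split between them. Gas6, the bridging ligand of Axl and Mertk, was read at 12.3, 51.8, 236, 46.0 and 14 CPM, and Il6ra, the receptor chain for interleukin 6, at 11, 42.6, 191, 33.6 and 10.6 CPM. In these genes WT 3 stood alone at the top and WT 1 and WT 5 were lowest. Other genes, chosen after their values were seen, split the libraries in the same way but with WT 2 and WT 4 nearer to WT 3. Rsrp1, a gene of an arginine and serine rich protein, was read at 18.5, 385, 613, 284 and 6.54 CPM, Ndfip1, an adaptor of ubiquitin ligases, at 4.84, 187, 343, 176 and 7.77 CPM, and H13, a signal peptide peptidase, at 10.1, 197, 196, 191 and 8.77 CPM.

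A smaller number of genes split WT 4 and WT 5 from WT 1, WT 2 and WT 3. Wdfy1, an adaptor of endosomal receptors, was read at 8.49, 8.69, 10, 129 and 125 CPM, and the weighted transcript length in the files was 1039, 1054, 1216, 2422 and 2761 bases. The gene model Gm49342 was read at 11, 12.1, 9.70, 111 and 111 CPM. Pde2a, a phosphodiesterase, went the other way, at 105, 139, 131, 19.5 and 9.97 CPM. Gm49342 and Pde2a were chosen after their values were seen. The labels do not say what WT 4 and WT 5 have in common, and the part of strain, age or preparation was not tested.

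**Figure D5:**
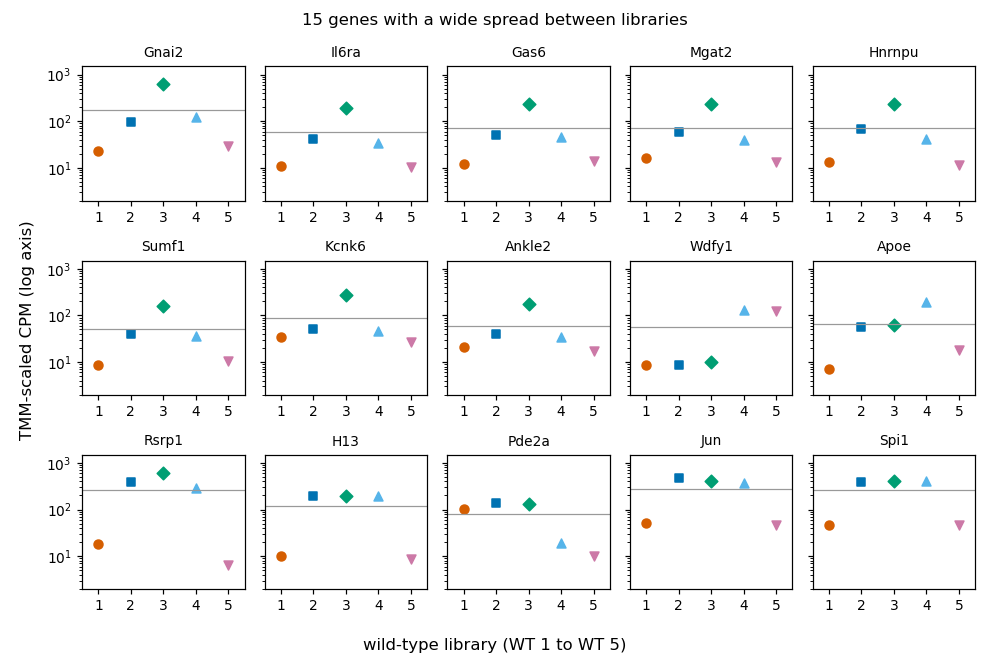
TMM-scaled CPM on a log axis for 15 genes with a wide spread between libraries, 1 panel per gene and 1 symbol per library, with a line at the mean. In most panels WT 1 and WT 5 are lowest and WT 3 is highest, while Wdfy1 and Pde2a separate WT 4 and WT 5 from the other libraries. The 10 genes of largest spread come first, and the last 5 were chosen after their values were seen.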

How the data were processed

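The 5 WT libraries were analysed, and the double knockout libraries were not used here. Per the paper's methods, read quality was checked with FastQC 0.11.8, adapters were trimmed with cutadapt 2.6, and reads were aligned to mm10 with STAR 2.5.3a. The quantifier and the annotation were not given in the sources used here. Each deposited file holds, per gene, an estimated count with no normalization, a length and an effective length, and a TPM scaled by the authors' tool to 1 total per library. Symbol and biotype were read from the gene names.

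Shares are percentages of a library's summed estimated counts. Single genes are given as CPM on TMM-scaled library sizes (edgeR 4.0.16, R 4.3.3), for which counts were rounded, and lists as CPM of the unscaled total. The deposited TPM was not used for levels, because 9236 genes with an effective length under 100 bases took 5.95% to 21.6% of it, so TPM was recomputed without them. Spreads are SDs of 5 libraries. No groups were compared, and the only test was Dixon's gap test for a library far from the others. The scripts were first tested on simulated data with known shares, CVs and dispersion. Python 3.11.15, pandas 2.3.3 and matplotlib 3.10.9 did the rest. Transcript lengths and overlaps are from GENCODE M21 on GRCm38, in which 99.9% of gene IDs were found, and promoters from RefSeq.

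The members, lists and rules were chosen with earlier results of these data known. The genes named are the 4 markers, the 30 of highest share, the 15 protein-coding ones of highest TPM, the 4 leading members of each core or function list, the 2 of each marker list, the 3 of each family, the gate markers, the 8 leading noncoding genes, and, at a mean of at least 50 CPM, the 10 of largest and 5 of smallest CV. Members named for low or absent counts, and those said to be so, were chosen after their values were seen. Some genes the rule names are not reported here. Alternatives were other shares (nuclear genes, TPM, summed counts, medians), other filters and scaling factors, and leaving out libraries. Counts of 23381908 to 25870859 per library set the precision, and 3 counts are 0.116 to 0.128 CPM.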

Additional observations from a re-analysis of the deposited data

Results flagged for a closer look

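In 25 of 362 values tested for 1 library far from the other 4 (Dixon's gap test at the 95% level), such a library was found. Chance alone gives about 1 in 20 groups. The values tested included 75 genes named for their spread between libraries or after their values were seen, and without these 12 of 287 values (4.18%) had such a library, 2 of them in WT 3.

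Of all 25, 12 concerned WT 3, of which 8 were genes named for the largest CV, so that the number in WT 3 restates in part how they were chosen. Its CPM were 619 for Gnai2 against 23.1 to 121 in the other libraries, 272 for Kcnk6 against 26.9 to 51.3, 239 for Mgat2 against 13.1 to 58.0, 231 for Hnrnpu against 11.6 to 67.8, 236 for Gas6 against 12.3 to 51.8, 178 for Ankle2 against 17.7 to 39.3, 191 for Il6ra against 10.6 to 42.6 and 156 for Sumf1 against 8.64 to 39.3. Hnrnpu shares its position with Cox20. The early response genes Dusp1 and Egr1 were read at 96.5 CPM against 3.16 to 19.5 and at 61.2 CPM against 2.89 to 19.7. Gm23935, annotated as a microRNA, was read at 586 CPM against 139 to 232, and P2ry13 was low in WT 3, at 4321 CPM against 5489 to 5708. The part of RNA quality or transcript assignment in these values was not tested.

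WT 5 was high for Tmem119 with 10716 CPM (8553 to 9096 elsewhere), for Vsir with 3686 CPM (3239 to 3354), for Irf8 with 921 CPM (769 to 806) and for Tfrc, the transferrin receptor, with 34 CPM (21.1 to 23.1). It was low for Itm2b with 5608 CPM (7056 to 7590) and for H2-K1 with 415 CPM (512 to 548). WT 1 was high for Gm10925 with 1133 CPM (694 to 795).

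In WT 4 the MHC class II family held 0.103% of the counts (0.0735% to 0.0814% elsewhere), and the MHC class II presentation list, which shares its leading members, also 0.103%. WT 4 was high for Ltc4s, an enzyme of leukotriene synthesis, with 448 CPM (262 to 313), for Ly6a with 15.1 CPM (10.7 to 12) and for Ube2d3 with 494.5 CPM (473 to 477), and low for the chaperone Canx with 911 CPM (1142 to 1235).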

How the results depend on the processing

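Measured per length instead of per count, the make-up changed. The 4 markers moved from 4.63% of counts to 2.79% of the deposited and 3.10% of the recomputed TPM, the 30 first genes from 26.5% to 27.3% and 30.4%, the identity list from 14.7% to 15.7% and 17.4%, and the number of genes holding 50% from 248 to 111 and 153. Cst3 stood at 79001 instead of 88017 on the deposited TPM. The number of genes with a 5-fold range ran from 49 to 88 when 1 library was left out, the lowest without WT 3, and was 12 without WT 1 and WT 5. A range over fewer libraries tends to be narrower. With upper-quartile scaling factors the number was 61 instead of 87, and the median CV 19.4% instead of 15.5%. Pairs of neighbours that kept their order numbered 3 with all libraries, 2 to 5 with 1 library left out and 10 without WT 1 and WT 5, where fewer libraries have to agree. Of further checks of single genes, lists and families, 92 of 113 shares of the deposited TPM and 86 of 110 of the recomputed TPM moved by at least 1 SD. Leaving out libraries cannot move a mean of 5 by 1 SD, so those checks do not bear on single genes and lists. No paired analysis was possible because the results describe the WT libraries alone and come from no test. Depth limits genes under about 10 CPM, where counting error gives a median CV of 10.9%. With 5 libraries of unknown strain, age and RNA integrity, differences between them cannot be assigned to a source.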

Other observations

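Some gene groups outside the sections above complete the picture. Solute carriers, with 174 of 371 genes detected, held 1.87 ± 0.11% of the counts, and after Slc2a5 were led by Slc25a5, the mitochondrial ADP/ATP carrier, with 1090 ± 154 CPM and Slc29a3, a lysosomal nucleoside transporter, with 981 ± 30.6 CPM. Proteasome genes held 0.476 ± 0.0408% with 49 of 50 detected, and ubiquitin genes 0.402 ± 0.0194% with 4 of 4. Integrin subunits held 0.292 ± 0.0456% with 13 of 31 detected, Itgam and Itgb2 in the lead. Itgb1 was read at 103, 309, 523, 297 and 120 CPM in WT 1 to WT 5, lowest in WT 1 and WT 5. Of the potassium and proton channels 12 of 17 were detected. Hvcn1, the voltage-gated proton channel, was read at 512 ± 60.2 CPM and Kcnk13 (THIK-1), the potassium channel known to set the resting potential of microglia, at 272 ± 31.0 CPM, while Kcna3 (Kv1.3) reached at most 0.282 CPM. Olfactory and vomeronasal receptor models numbered 1455, of which 21 were detected and which together held 0.0188 ± 0.00230% of the counts. Olfr110 led them with 11.9 ± 5.42 CPM.

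The family of the annexins (0.0773 ± 0.00165%) was steady in its summed share. Tubulins, at 0.224%, 0.157%, 0.157%, 0.190% and 0.271% in WT 1 to WT 5, were not.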
